A study of Gallus gallus with 2 samples.

Results

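The collagen genes of the chicken peritoneum were taken as all genes whose symbol reads COL, digits, A and digits, which gave 33 of the 29558 genes in the deposited count matrices. Single-cell RNA sequencing had been run on peritoneum of 40-day-old female Huiyang Bearded chickens, an indigenous Chinese breed in which some birds carry a darkly pigmented visceral peritoneum. The HVP-labelled library (hyperpigmentation of the visceral peritoneum) held tissue pooled from 10 birds with a black peritoneum, and the Normal-labelled library held tissue pooled from 10 birds with a peritoneum of normal colour. No treatment or genetic change was applied to either set of birds, and the cells of a library carry no mark of the bird they came from. Each colour was therefore measured in 1 library, so differences between the libraries have no replicate check, no test was run between them, and every interval below covers counting error only (95%).

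One conflict in the record touches every direction between the libraries. The files of the HVP-labelled library carry the name of the normal group and the files of the Normal-labelled library carry the name of the black group. Groups below follow the sample labels, and read by the file names each ratio between the libraries would be turned round. *DCT*, the melanin-synthesis enzyme that the study is about, stood at 1.86 CPM (UMIs scaled to a library total of 1000000, with 64 UMIs counted and an interval 1.43 to 2.38) in the HVP-labelled library and at 4.77 CPM (119 UMIs, 3.95 to 5.71) in the Normal-labelled library. The gene named for the pigmentation was thus higher in the Normal-labelled library. Levels of a collagen across cell classes within a library do not depend on which bird group the library came from.

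After barcodes with 1000 or fewer detected genes were set aside, 5866 of 7157 barcodes remained in the HVP-labelled library and 5464 of 6981 in the Normal-labelled library, with medians of 5345 and 3818 UMIs per cell. The libraries shared 14 cell barcodes, 11 of them among the cells kept. Cells were clustered in each library with all collagens withheld from the genes used, and clusters were named from marker lists that hold no collagen. Of the classes named in both libraries, tenocyte-like (902 and 488 cells), fibroblast-like (784 and 1277), blood endothelial-like (1105 and 1348), pericyte-like (658 and 511) and smooth muscle-like cells (361 and 662) were the main ones, in the order HVP-labelled library, Normal-labelled library. Melanocyte-like (93 and 62), mesothelial-like (70 and 77), Schwann-like (67 and 47) and satellite cell-like (33 and 39) cells were fewer. A cluster in each library led by *NELL1*, *ACAN*, *WNT7B* and *BCAN* (571 and 278 cells) had markers of more than one class and is called here the NELL1-ACAN cluster. It had 3 fibroblast markers in the HVP-labelled library, and 3 mesothelial and 4 fibroblast markers in the Normal-labelled library. No class name was given because *ACAN*, a leading gene, stands on the cartilage list. A cluster of 1017 cells in the HVP-labelled library, led by *LCAT*, *RET*, *GSN* and *PTGDS*, and one of 341 cells in the Normal-labelled library, led by *FREM2*, kept no name. Nor did a cluster of 334 cells in the Normal-labelled library with both myeloid and T cell markers, which serves below as its leukocyte cluster. This cluster had *COL26A1* at 47.5 CPM, above the 21.8 CPM of fibroblast-like cells of that library, so as a leukocyte reference it is uncertain.

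Collagens are trimers of chains that wind around one another in a triple helix, and each gene encodes one kind of chain. Fibrillar collagens (types I, III, V and XI) build the rope-like fibrils of connective tissue, fibril-associated collagens sit on their surface, type IV collagens form the sheet of the basement membrane under epithelia, endothelia and muscle, and type VI forms beaded filaments between fibrils and basement membrane. In a serous membrane such as the peritoneum, a mesothelial sheet rests on a basement membrane over a layer of fibroblasts, fibrils, vessels and nerves. Chains that join in one trimer are often encoded by neighbouring genes.

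Collagen transcripts fell into 2 levels among the cell classes. Collagens made up 13.4% of UMIs in fibroblast-like cells of the HVP-labelled library and 12.0% in those of the Normal-labelled library, 12.1% and 11.2% in the NELL1-ACAN cluster, and 9.68% and 8.27% in tenocyte-like cells. The unnamed cluster led by *LCAT* in the HVP-labelled library also belonged to this high level, with 11.0%. Pericyte-like cells had 1.86% in the HVP-labelled library and 1.62% in the Normal-labelled library, smooth muscle-like cells 1.62% and 1.01%, and blood endothelial-like cells 0.821% and 0.763%. The remaining named classes lay between 0.493% and 1.69%.

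**Figure D1:**
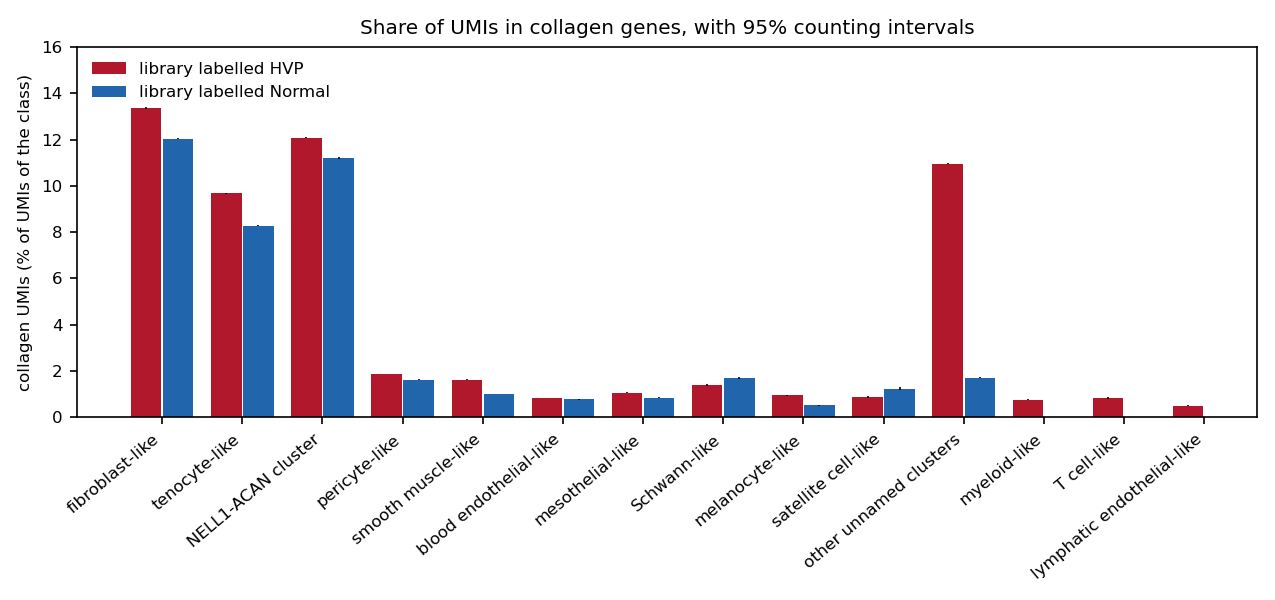
Share of all UMIs taken by the 33 collagen genes (vertical axis, percent) in each cell class, with the HVP-labelled library in red on the left and the Normal-labelled library in blue on the right, and error bars giving 95% binomial intervals. Fibroblast-like, tenocyte-like and NELL1-ACAN cells stand between 8.27% and 13.4%, far above the pericyte-like cells at 1.62% and 1.86%.

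The lower level has to be read against the collagen UMIs counted in leukocytes. Whether these came from RNA free in the droplets or from doublets, which were not removed, was not tested. The leukocyte clusters, which normally make no fibrillar collagen, held *COL1A1* at 3905 CPM in the HVP-labelled library (171 cells, median 2746 UMIs) and at 4654 CPM in the Normal-labelled library (334 cells, median 3029 UMIs). *COL1A1* at 1857 to 4051 CPM in melanocyte-like cells and at 3456 and 3916 CPM in mesothelial-like cells was thus close to or below its level in leukocytes. When each cell was thinned to 2000 UMIs so that depths match, *COL1A1* was found in 59.5% of leukocytes in the HVP-labelled library and in 42.6% in the Normal-labelled library. *COL3A1* was found in 44.9% and 31.1% of them. For the most abundant collagens, levels near these say nothing about synthesis in a class, and the members below are set against them where it matters.

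Of the 33 collagens, 29 had at least 50 UMIs in each library. For 23 of these 29 the same named class had the highest level in both libraries, where 57.3% of all 12588 genes with as many UMIs did so. Fibroblast-like cells led for 6 (*COL1A1*, *COL3A1*, *COL5A1*, *COL6A1*, *COL6A2* and *COL8A1*), tenocyte-like cells for 6 (*COL6A3*, *COL10A1*, *COL11A1*, *COL12A1*, *COL13A1* and *COL16A1*) and pericyte-like cells for 4 (*COL4A1*, *COL4A2*, *COL21A1* and *COL28A1*). Schwann-like cells led for *COL8A2* and *COL18A1*, blood endothelial-like cells for *COL17A1* and *COL19A1*, satellite cell-like cells for *COL4A5* and *COL4A6*, and smooth muscle-like cells for *COL14A1*. The leading class differed between the libraries for 6 members (*COL1A2*, *COL9A3*, *COL20A1*, *COL22A1*, *COL25A1* and *COL26A1*). With the stricter demand that the leading class be at least 2-fold above the next named class in both libraries, 8 members were class-specific, against 10.7% of all genes with as many UMIs. They were *COL10A1*, *COL11A1*, *COL12A1*, *COL13A1* and *COL16A1* in tenocyte-like cells, *COL3A1* in fibroblast-like cells, *COL28A1* in pericyte-like cells and *COL8A2* in Schwann-like cells. The NELL1-ACAN cluster is no named class and was left out of this count. With it counted as a class, a choice made after the data were seen, 6 were class-specific: *COL11A1*, *COL12A1* and *COL16A1* came within 2-fold of it, and *COL26A1* became specific to it. No share of all genes is given with that cluster counted, so the 10.7% cannot be set beside these 6.

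**Figure D2:**
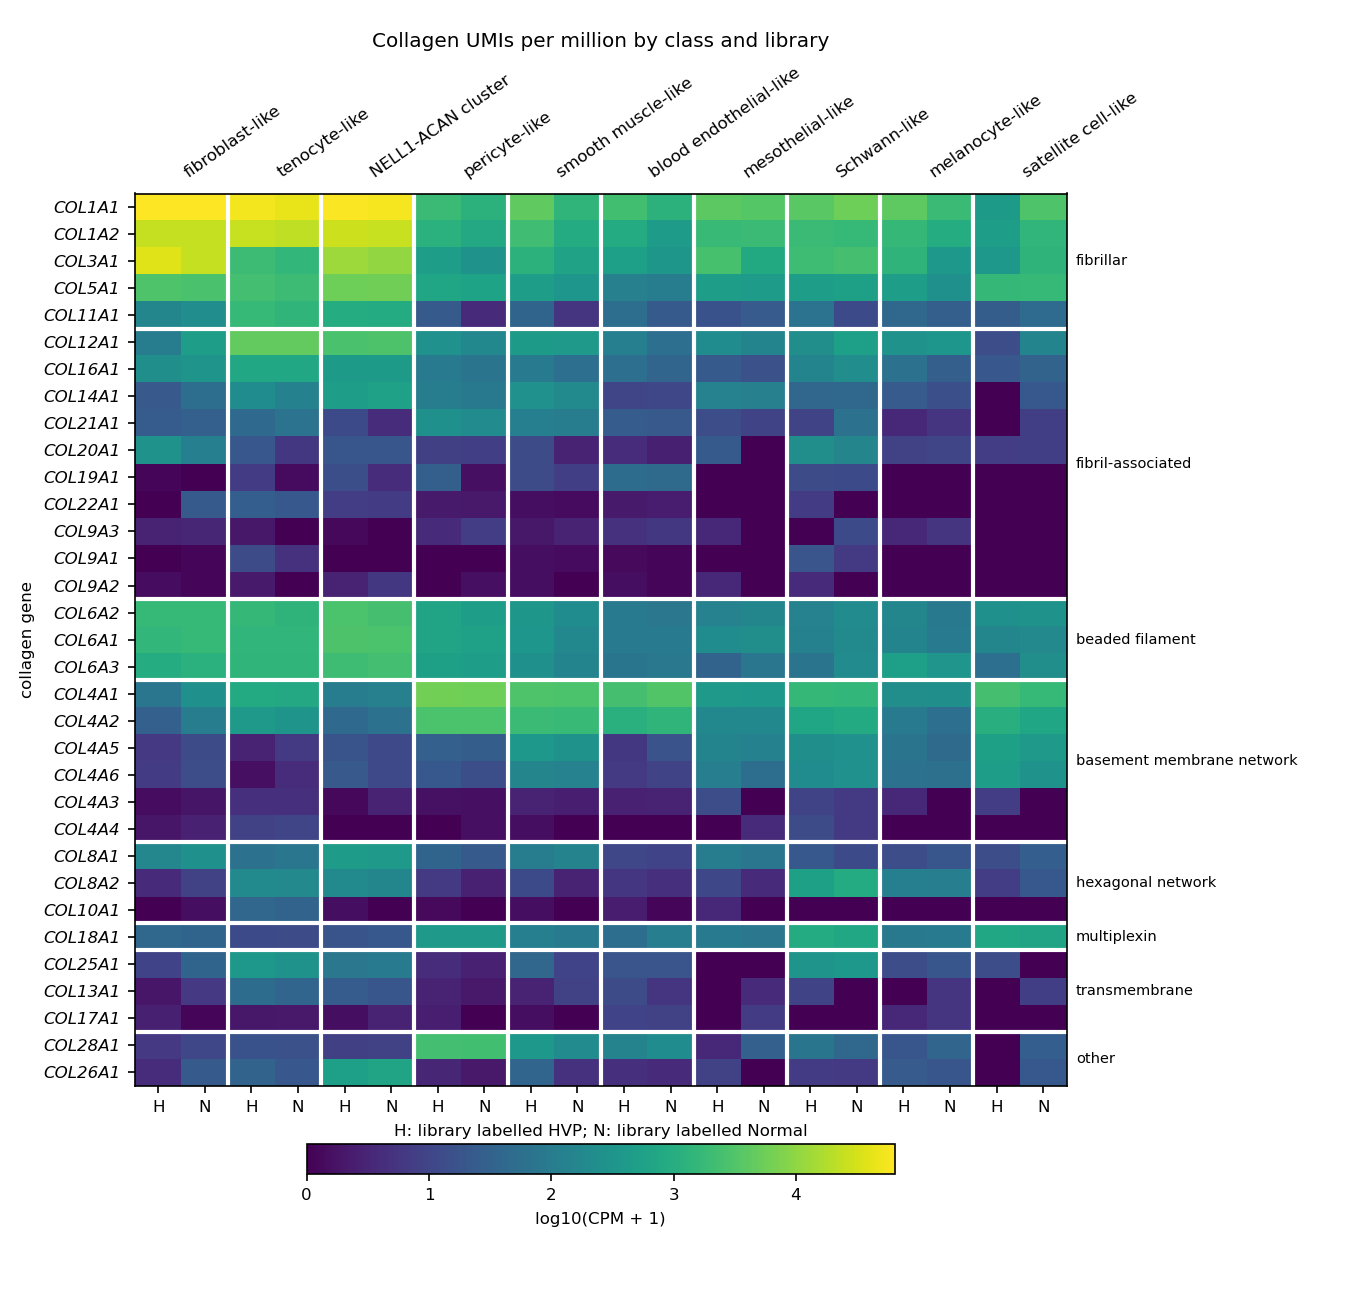
Level of each collagen gene (down the page, by family) in each cell class (across, with the HVP-labelled library on the left of each pair, H, and the Normal-labelled library on the right, N), as colour on a log10(CPM + 1) scale. The columns of a pair look alike, the fibrillar collagens fill the fibroblast-like, tenocyte-like and NELL1-ACAN columns, *COL28A1* stands out in pericyte-like cells (2370 and 2249 CPM) and *COL8A2* in Schwann-like cells (549 and 890.0 CPM).

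Among the fibrillar collagens, the type I chains were the most abundant members and the type III chain drew the sharpest line between fibroblast-like and tenocyte-like cells. *COL1A1*, the major chain of skin, tendon and bone, reached 64461 CPM in fibroblast-like cells of the HVP-labelled library and 62208 CPM in those of the Normal-labelled library. In tenocyte-like cells it stood at 53041 and 43828 CPM, and in the NELL1-ACAN cluster at 61091 and 55881 CPM, so these 3 populations differed by less than 1.5-fold within either library. *COL1A2*, the partner chain, stood at 23927 and 24439.9 CPM in fibroblast-like cells and at 25576 and 22619 CPM in tenocyte-like cells, which is why its leading class was not the same in both libraries. *COL3A1*, the chain of the thin fibrils of loose connective tissue and vessel walls, reached 36864 CPM in fibroblast-like cells of the HVP-labelled library and 24578 CPM in those of the Normal-labelled library, against 1987 and 1529 CPM in tenocyte-like cells. Fibroblast-like cells exceeded the next named class 14.4-fold in the HVP-labelled library and 9.88-fold in the Normal-labelled library. The clusters without a class name came closer, with 12955 and 10711 CPM in the NELL1-ACAN cluster and 14888 CPM in the *LCAT*-led cluster of the HVP-labelled library.

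The proportions of the chains separated the populations without any division by depth. There were 0.572 *COL3A1* UMIs for each *COL1A1* UMI in fibroblast-like cells of the HVP-labelled library and 0.395 in those of the Normal-labelled library. The same proportion was 0.212 and 0.192 in the NELL1-ACAN cluster and 0.0375 and 0.0349 in tenocyte-like cells, so the NELL1-ACAN cluster lay between the fibroblast-like and tenocyte-like cells in both libraries. The proportion of *COL1A1* to *COL1A2* was less variable, at 2.69 and 2.55 in fibroblast-like, 2.07 and 1.94 in tenocyte-like and 1.66 and 1.55 in pericyte-like cells. In the T cell-like cells of the HVP-labelled library, *COL3A1* made up 18.1% of the UMIs of *COL1A1*, *COL1A2* and *COL3A1* together, in its myeloid-like cells 13.0% and in the leukocyte cluster of the Normal-labelled library 14.6%, near the 15.0% and 17.1% of all cells kept.

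In Schwann-like cells *COL3A1* made up 27.0% and 25.6% of these UMIs, in satellite cell-like cells 29.4% and 23.2%, and in mesothelial-like cells 31.0% in the HVP-labelled library and 13.6% in the Normal-labelled library. After thinning, *COL3A1* was found in 78.8% of Schwann-like cells in the HVP-labelled library and in 75.6% in the Normal-labelled library, above its share in leukocytes, while *COL1A1* was found in 40.9% and 42.2%, at or below its share in leukocytes. Most *COL3A1* UMIs of the class nevertheless came from few cells, since the top 5% of cells held 62.0% and 73.6% of them, and the median cell stood at 747 and 730 CPM.

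*COL5A1*, a chain that governs how fibrils start and how thick they grow, was highest in the NELL1-ACAN cluster, with 5586 CPM in the HVP-labelled library and 5863 CPM in the Normal-labelled library, against 3039 and 2714 CPM in fibroblast-like cells. It was also present in satellite cell-like cells, the muscle stem cells, at 1586 CPM (250 UMIs in 33 cells) and 1669 CPM (248 UMIs in 39 cells). There, 3.85 *COL5A1* UMIs were counted for each *COL1A1* UMI in the HVP-labelled library and 0.554 in the Normal-labelled library. Pericyte-like cells came next in each library, with 0.360 (0.343 to 0.378) in the HVP-labelled library and 0.507 (0.470 to 0.545) in the Normal-labelled library, where their interval overlapped that of satellite cell-like cells (0.472 to 0.648). *COL1A1* had 65 and 448 UMIs in satellite cell-like cells, and the top 5% of cells held 30.8% and 65.6% of them. Its 412 and 3015 CPM there were below the 3905 and 4654 CPM of leukocytes. *COL11A1*, a chain of the thin fibrils of cartilage and of developing tendon, was a tenocyte-like transcript with 1641 CPM in the HVP-labelled library and 1382 CPM in the Normal-labelled library, 10.3-fold and 6.08-fold above the next named class. The NELL1-ACAN cluster came second among all clusters with 929 and 905 CPM.

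The fibril-associated collagens divided along the same line. *COL12A1*, which bridges fibrils in tendon, fascia and ligament, reached 4596 CPM in tenocyte-like cells of the HVP-labelled library and 4455 CPM in those of the Normal-labelled library, 11.0-fold and 8.67-fold above the next named class. The NELL1-ACAN cluster had 2707 and 2899 CPM. In fibroblast-like cells the gene was found at 109 and 498 CPM. *COL16A1* followed it at a lower level, with 750 and 744 CPM in tenocyte-like cells, 2.98-fold and 2.39-fold above the next named class, with 422 and 417 CPM in the NELL1-ACAN cluster.

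*COL14A1*, another fibril-bridging chain, did not share that pattern. Its highest named class was smooth muscle-like, at 267 CPM in the HVP-labelled library and 190.1 CPM in the Normal-labelled library, while the NELL1-ACAN cluster had 495 and 553 CPM. *COL20A1*, a fibril-associated chain first described in the chick, was held by fibroblast-like cells (301 and 116 CPM) and Schwann-like cells (238 and 155 CPM) and stood below 23 CPM in every other named class. *COL21A1*, known from vessel walls, was a mural transcript with 256 and 207 CPM in pericyte-like cells, followed by smooth muscle-like cells at 120.1 and 107 CPM. *COL19A1*, a sparse chain of basement membrane zones, stood at 48.5 and 44.8 CPM in blood endothelial-like cells. *COL22A1*, known from tissue junctions such as those of muscle and tendon, stood at 26.8 and 19.8 CPM in tenocyte-like cells.

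The beaded-filament genes *COL6A1*, *COL6A2* and *COL6A3* encode the 3 chains of the type VI trimer. They were highest in the NELL1-ACAN cluster in both libraries, at 2046 to 2879 CPM, and stood at 938 to 1686 CPM in fibroblast-like and tenocyte-like cells.

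Melanocyte-like cells were the exception to this joint pattern. *COL6A3* reached 520 CPM (201 UMIs, 450 to 597) in melanocyte-like cells of the HVP-labelled library and 316 CPM (69 UMIs, 246 to 399) in those of the Normal-labelled library. *COL6A1* stood at 147 and 91.5 CPM and *COL6A2* at 163 and 86.9 CPM in the same cells. There were thus 3.19 *COL6A3* UMIs (2.39 to 4.30) for each *COL6A2* UMI in the HVP-labelled library and 3.63 (2.16 to 6.39) in the Normal-labelled library, where the other classes lay between 0.220 and 1.05.

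The excess was spread over many melanocyte-like cells. After thinning, *COL6A3* was found in 53.3% (42.6 to 63.7) of 92 cells in the HVP-labelled library and in 47.5% (34.6 to 60.7) of 61 cells in the Normal-labelled library, against 10.1% and 12.8% of leukocytes. The top 5% of cells held 23.9% and 27.5% of its UMIs. *COL6A1*, at 10.9% and 11.5% of cells, and *COL6A2*, at 16.3% and 8.20%, were no more frequent there than in leukocytes, where *COL6A1* was found in 17.7% and 14.5% and *COL6A2* in 19.0% and 15.2%. The median melanocyte-like cell held *COL6A3* at 413 CPM in the HVP-labelled library and at 282 CPM in the Normal-labelled library, and the other chains at 0.

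**Figure D3:**
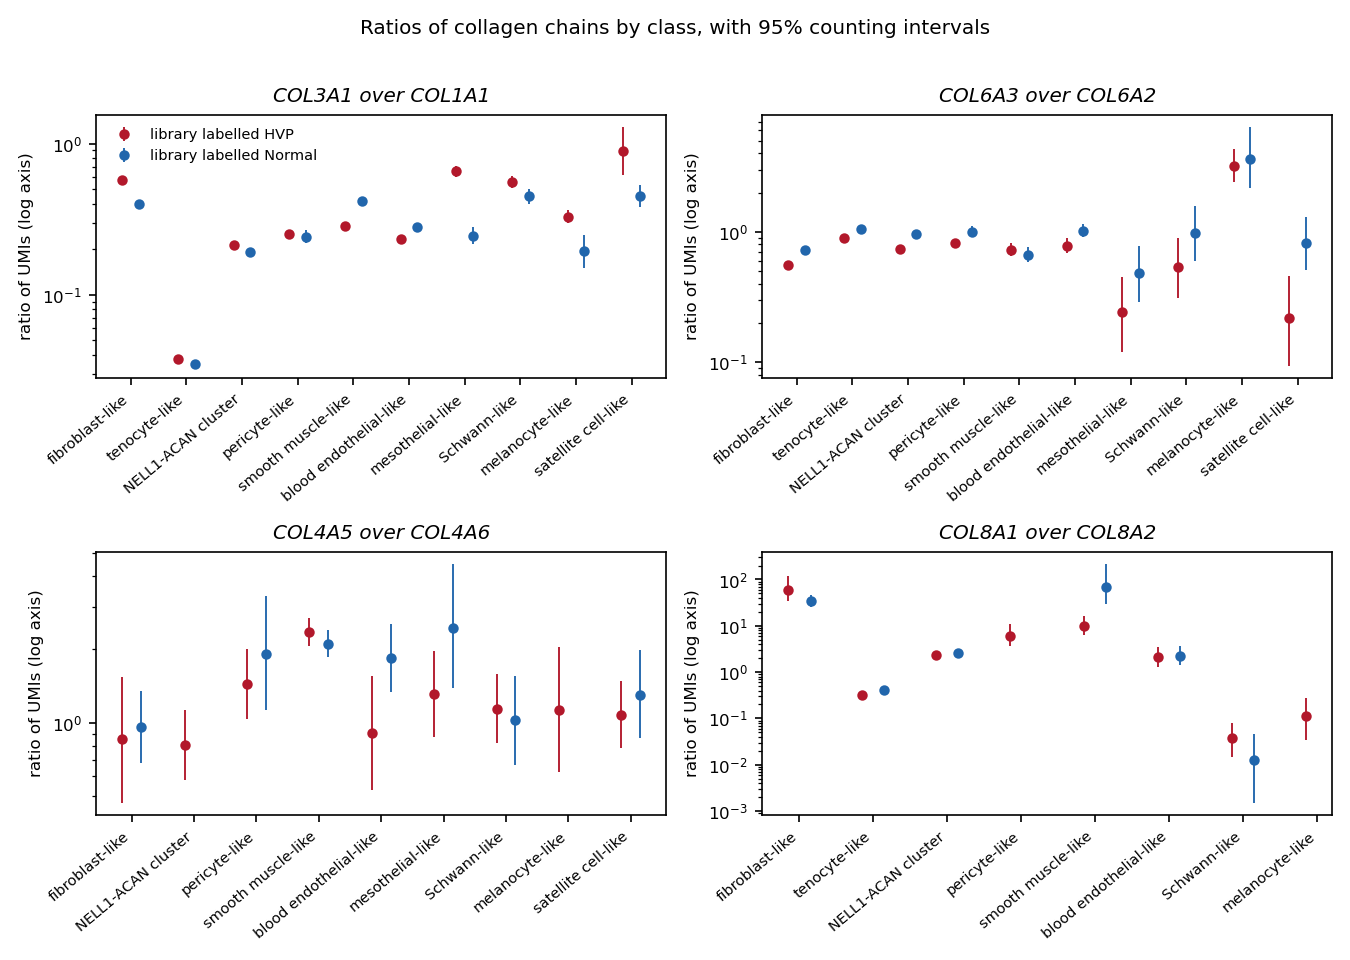
Number of UMIs of the first chain for each UMI of the second (vertical axes, log scale) in each cell class for pairs of collagen chains (classes with too few UMIs of a pair are not drawn), with the HVP-labelled library in red on the left, the Normal-labelled library in blue on the right and 95% counting intervals as bars. The *COL6A3* to *COL6A2* proportion is highest in melanocyte-like cells (3.19 and 3.63), and the *COL3A1* to *COL1A1* proportion is lowest in tenocyte-like cells (0.0375 and 0.0349).

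Of the basement membrane genes, *COL4A1* and *COL4A2*, which encode the chains found under nearly all endothelia, were highest in pericyte-like cells, not in the endothelium itself. *COL4A1* stood at 6054 CPM in pericyte-like cells of the HVP-labelled library and 5706 CPM in those of the Normal-labelled library, against 3005 and 2767 CPM in smooth muscle-like cells and 2427 and 3186 CPM in blood endothelial-like cells. *COL4A2* reached 2809.9 and 2749 CPM in pericyte-like cells. The proportion of *COL4A1* to *COL4A2* was 2.15 and 2.08 in pericyte-like, 2.11 and 2.24 in blood endothelial-like and 1.59 and 1.51 in smooth muscle-like cells.

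*COL4A5* and *COL4A6*, whose chains form the second trimer of smooth muscle basement membranes, had another distribution. In smooth muscle-like cells *COL4A5* stood at 368 CPM in the HVP-labelled library and 288 CPM in the Normal-labelled library, and *COL4A6* at 157 and 137 CPM. Satellite cell-like cells had more of each, at 539 and 377 CPM for *COL4A5* and at 501 and 289 CPM for *COL4A6*, though with 43 to 85 UMIs behind each value. Schwann-like cells held both at 214 to 271 CPM. The proportion of *COL4A5* to *COL4A6* was 2.35 and 2.11 in smooth muscle-like cells, above the 1.14 and 1.02 of Schwann-like and the 1.08 and 1.30 of satellite cell-like cells. In pericyte-like and blood endothelial-like cells neither gene passed 30 CPM.

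These pairs are genomic neighbours. In the RefSeq annotation of GRCg7b, the build the deposited counts use, *COL4A1* lies at chr1:138807413-138920608 and *COL4A2* at chr1:138919708-139061817, an overlap of 901 bases. *COL4A5* and *COL4A6* on chromosome 4 are 412 bases apart, and *COL4A3* and *COL4A4* on chromosome 9 overlap by 19210 bases. On chromosome 7, *COL6A1* and *COL6A2* are 20298 bases apart and *COL18A1* lies 58192 bases from *COL6A1*. *COL9A1* and *COL19A1*, on chromosome 3, overlap by 698 bases. The counted genes carry Ensembl identifiers, so the gene bounds used in counting may differ from these RefSeq positions. Values of overlapping genes are uncertain to the extent that reads were shared between them.

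Among the hexagonal-network genes, *COL8A1* and *COL8A2*, whose chains are known from the cornea and vessel walls, were used by different classes. *COL8A2* reached 549 CPM (187 UMIs, 473 to 633) in Schwann-like cells of the HVP-labelled library and 890.0 CPM (161 UMIs, 758 to 1039) in those of the Normal-labelled library, 2.92-fold and 4.90-fold above the next class. It was found in 56.1% and 60.0% of thinned Schwann-like cells and in 32.4% and 30.1% of tenocyte-like cells, against 0% and 1.38% of leukocytes. Melanocyte-like cells held it in 16.3% and 19.7%. *COL8A1* was instead highest in the NELL1-ACAN cluster (449 and 403 CPM) and, of the named classes, in fibroblast-like cells (169 and 256 CPM). Smooth muscle-like cells (109 and 138 CPM) and mesothelial-like cells (110 and 76.5 CPM) also held it, and the *LCAT*-led cluster had 228 CPM. For each *COL8A2* UMI there were 60.3 and 34.1 *COL8A1* UMIs in fibroblast-like cells and 9.91 and 70.2 in smooth muscle-like cells. The proportion was 0.326 and 0.419 in tenocyte-like cells and 0.0374 and 0.0124 in Schwann-like cells.

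*COL10A1*, best known as the collagen of hypertrophic growth-plate cartilage, was found almost only in tenocyte-like cells. They held 249 of its 265 UMIs in the HVP-labelled library (94.0%) and 84 of 89 in the Normal-labelled library (94.4%), at 37.0 and 32.6 CPM, in 178 of 902 and 72 of 488 cells. Every other named class had at most 2.50 CPM. *COL10A1* was also among the 10 leading genes of the tenocyte-like cluster in both libraries, and it took no part in the clustering.

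Skeletal genes were read in the same cells. Of 7 cartilage genes in the matrices, *ACAN* (2.97 and 0.388 CPM), *MATN1* (no UMI), *MATN3* (8.32 and 4.27 CPM), *HAPLN1* (2.68 and 0.388 CPM) and *SOX9* (4.76 and 4.27 CPM) were low in tenocyte-like cells. *SOX5*, a partner of SOX9 in cartilage, stood at 171 CPM in the HVP-labelled library and 176 CPM in the Normal-labelled library, and *CHAD*, a collagen-binding protein of cartilage and tendon, at 1936 and 2376 CPM. The NELL1-ACAN cluster had *SOX5* at 144 and 148 CPM and *CHAD* at 1100 and 1061 CPM. Fibroblast-like cells had *SOX5* at 54.0 and 88.7 CPM and *CHAD* at 437 and 601 CPM. Of 5 bone genes, *RUNX2*, the regulator of bone and hypertrophic cartilage, stood at 159 and 168 CPM in tenocyte-like cells. It was higher in the NELL1-ACAN cluster, at 274 and 298 CPM, and stood at 42.5 and 129 CPM in fibroblast-like cells. *BGLAP*, which encodes osteocalcin, stood at 56.8 and 62.1 CPM in tenocyte-like cells, though fibroblast-like cells had it at 44.6 and 53.0 CPM. *IBSP*, *ALPL* and *SPP1* were at 12.8 CPM or less in tenocyte-like cells. The tendon genes *TNMD* (890.3 and 530 CPM), *FMOD* (1551 and 1520.3 CPM), *THBS4* (140 and 130 CPM) and *MKX* (125 and 118 CPM) were all among the markers that gave the class its name, as was *SCX* in the HVP-labelled library, and *KERA* stood at 3.87 and 1.94 CPM.

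*COL28A1*, a beaded chain known in mammals from peripheral nerve, was a pericyte-like transcript here. It reached 2370 CPM in pericyte-like cells of the HVP-labelled library and 2249 CPM in those of the Normal-labelled library, 6.59-fold and 10.4-fold above the next class. After thinning it was found in 83.4% (80.3 to 86.2) and 87.7% (84.5 to 90.4) of pericyte-like cells. Schwann-like cells, the glia of peripheral nerve, held it at 73.3 CPM (25 UMIs) and 38.7 CPM (7 UMIs) and in 9.09% and 6.67% of thinned cells, against 2.53% and 5.19% of leukocytes.

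*COL18A1*, a basement membrane chain that carries the endostatin fragment, was led by Schwann-like cells at 907 CPM in the HVP-labelled library and 779 CPM in the Normal-labelled library. Satellite cell-like cells followed with 729 and 639 CPM, and pericyte-like cells with 405 and 378 CPM, so the lead over the second class was small. *COL26A1*, a secreted chain known from testis and ovary in mouse, was the most restricted to the NELL1-ACAN cluster, with 520 and 653 CPM and 84.5% and 78.1% of all its UMIs. That cluster also had the highest level of all clusters in both libraries for 7 other members (*COL1A2*, *COL5A1*, *COL6A1*, *COL6A2*, *COL6A3*, *COL8A1* and *COL14A1*). Since *COL26A1* belongs to the leading genes of the cluster, its level there is a description of the cluster.

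The transmembrane collagens were sparse outside tenocyte-like cells, Schwann-like cells and the NELL1-ACAN cluster, where *COL25A1* stood at 80.4 CPM in the HVP-labelled library and 99.8 CPM in the Normal-labelled library. *COL25A1*, a membrane collagen known from motor axon contacts in muscle, stood at 359 CPM in tenocyte-like cells of the HVP-labelled library and 290.4 CPM in those of the Normal-labelled library, and at 305 and 359 CPM in Schwann-like cells, so the order of these classes was not the same in the libraries. *COL13A1*, a chain of cell junctions and the neuromuscular synapse, reached 50.1 and 36.5 CPM in tenocyte-like cells, 4.37-fold and 4.64-fold above the next named class, with 24.5 and 18.1 CPM in the NELL1-ACAN cluster. *COL17A1*, the hemidesmosome collagen of epithelia, stayed at 8.34 and 7.38 CPM in its leading class.

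The remaining members were near the limit of detection. *COL9A3*, a chain of the cartilage type IX trimer, had 63 UMIs in the HVP-labelled library and 72 in the Normal-labelled library. Its partners *COL9A1* (89 and 14 UMIs) and *COL9A2* (27 and 12), with *COL4A3* (80 and 43) and *COL4A4* (81 and 36), chains of the kidney and lung basement membrane, had fewer than 50 UMIs in at least 1 library and were not counted above.

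Enzymes and chaperones that make collagens fit for export were read beside them. Of 34 such genes listed, 30 were in the matrices with at least 50 UMIs in each library, and 26 of these had the same leading class in both, beside the 57.3% of all genes given above. *SERPINH1*, the collagen-specific chaperone, stood at 1154 CPM in the NELL1-ACAN cluster of the HVP-labelled library and 1343 CPM in that of the Normal-labelled library, above fibroblast-like cells, its leading named class, at 700.3 and 608 CPM. Fibroblast-like cells were also the leading named class for *PCOLCE2*, an enhancer of propeptide removal (1168 and 599 CPM), and *LOXL1*, a cross-linking oxidase (892 and 555 CPM). *P3H2*, the prolyl 3-hydroxylase that acts on type IV chains, was highest, of the named classes, in pericyte-like cells (526 and 567 CPM), the class with the highest *COL4A1*, and so was *DDR2*, a receptor kinase for fibrillar collagen (225 and 205 CPM). *PLOD2*, the telopeptide lysyl hydroxylase, stood at 724 and 899.7 CPM in the NELL1-ACAN cluster, and its leading named class was pericyte-like in the HVP-labelled library (487 CPM) and smooth muscle-like in the Normal-labelled library (565 CPM).

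Between the libraries, whole-library levels of the fibrillar collagens were higher in the HVP-labelled library, and the differences in *COL1A1* were smaller within the classes richest in it. *COL1A1* stood at 37818 CPM over all cells of the HVP-labelled library and 23943 CPM over those of the Normal-labelled library, 1.58-fold higher, and *COL11A1* at 537 and 267 CPM, 2.01-fold higher. *COL4A1* was the other way round, at 1475 and 1839 CPM. The libraries also differed in the cells they held, since tenocyte-like and NELL1-ACAN cells and the *LCAT*-led cluster made up more of the HVP-labelled library. Blood endothelial-like, smooth muscle-like and also the collagen-rich fibroblast-like cells made up more of the Normal-labelled library. The order for fibroblast-like cells held only with separate clustering. When both libraries were clustered together, the cluster that took them up had 1479 of 5866 cells of the HVP-labelled library and 1133 of 5464 of the Normal-labelled library. Within fibroblast-like cells *COL1A1* differed 1.04-fold, within tenocyte-like cells 1.21-fold and within the NELL1-ACAN cluster 1.09-fold.

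Within classes, the collagens past 2-fold depended on how the cells were grouped. In fibroblast-like cells, 1 of 24 members with at least 50 UMIs was at least 2-fold higher in the HVP-labelled library and 10 were at least 2-fold lower, where 0.958% and 4.51% of all genes were. Tenocyte marker genes moved with the lower members, since all 6 were detected and summed to 45.8 CPM in fibroblast-like cells of the HVP-labelled library and 258 CPM in those of the Normal-labelled library. Their part in the result was not tested. When both libraries were clustered together, a choice made after the data were seen, the cluster that took up the fibroblast-like cells also took 682 cells of the HVP-labelled library that had no name before. Then 1 of 25 members was at least 2-fold higher and 2 at least 2-fold lower, against 0.658% and 1.22% of all genes.

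Most members at least 2-fold lower with separate clustering were not so with joint clustering. *COL12A1* had a ratio of 0.218 (465 UMIs in the HVP-labelled library, 2854 in the Normal-labelled library) when libraries were clustered separately, and *COL4A1* of 0.297, *COL4A2* of 0.267, *COL8A2* of 0.374, *COL14A1* of 0.397, *COL25A1* of 0.245, *COL4A5* of 0.434, *COL4A6* of 0.489 and *COL26A1* of 0.139. None of these remained at least 2-fold lower when libraries were clustered together, and *COL8A2* then stood 3.20-fold higher. *COL28A1*, not past 2-fold with separate clustering, had a ratio of 0.403 with joint clustering (43 UMIs in the HVP-labelled library, 62 in the Normal-labelled library). *COL22A1* was lower under both groupings, with no UMI in fibroblast-like cells of the HVP-labelled library and 124 in those of the Normal-labelled library, at least 30.8-fold lower against a floor of 3 counts. Those 124 UMIs lay in 17 of 1277 cells, 61 of them in 3 cells. With joint clustering it had 49 and 123 UMIs, a ratio of 0.231. *COL20A1* was 2.59-fold higher with separate clustering (1286 and 666 UMIs, found in 38.1% and 15.0% of thinned cells) and was not past 2-fold with joint clustering.

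**Figure D4:**
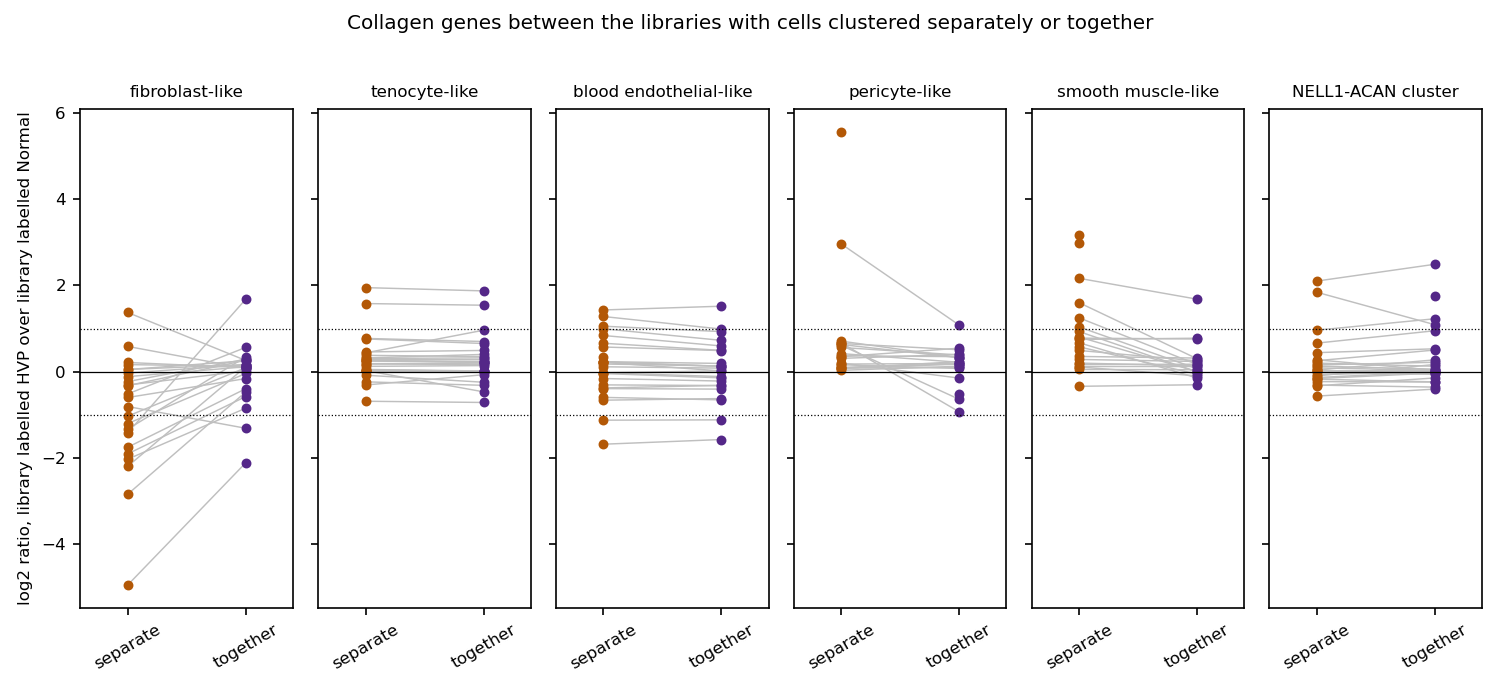
Ratio of the HVP-labelled library over the Normal-labelled library (log2 scale) for each collagen with at least 50 UMIs in a class, with libraries clustered separately (orange) or together (purple), and dotted lines at a 2-fold difference. In fibroblast-like cells the orange points reach well below the lower line and most purple points lie between the lines, while in tenocyte-like cells both sets lie between the lines except *COL9A1* and *COL20A1*.

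In tenocyte-like cells most collagens differed by less than 2-fold between the libraries. Of 26 members, 2 were at least 2-fold higher in the HVP-labelled library and none lower (1.54% and 0.842% of all genes), and the same 2 were past 2-fold with joint clustering (1.44% and 0.734%). *COL9A1* had 78 UMIs in 53 cells of the HVP-labelled library and 10 UMIs in 9 cells of the Normal-labelled library, a ratio of 2.99. *COL20A1* had 131 UMIs in 102 cells and 13 UMIs in 12 cells, a ratio of 3.86. The 5 tenocyte-like class-specific members differed by 1.37-fold or less.

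In blood endothelial-like cells, 3 of 25 members were at least 2-fold higher in the HVP-labelled library and 2 lower, against 1.28% and 2.21% of all genes. *COL18A1* had 304 UMIs in the HVP-labelled library and 812 in the Normal-labelled library, a ratio of 0.459, and was found in 129 of 1105 and 306 of 1348 cells, or in 6.83% and 14.5% of cells after thinning. *COL4A5* had a ratio of 0.312. *COL13A1*, *COL11A1* and *COL12A1* were 2.69-fold, 2.43-fold and 2.08-fold higher. Few cells held *COL13A1*, with 66 UMIs in 20 cells of the HVP-labelled library, 34 of them in 3 cells. The Normal-labelled library had 30 UMIs in 16 cells, 17 of them in 3 cells. With joint clustering *COL13A1* (2.86), *COL4A5* (0.336) and *COL18A1* (0.461) were past 2-fold, 1 of 24 members higher and 2 lower against 1.16% and 2.1% of all genes, and *COL11A1* and *COL12A1* were not. In the HVP-labelled library *COL11A1* stood at 53.7 CPM and *COL12A1* at 119 CPM in these cells, below the 54.2 and 131 CPM of the leukocyte clusters. In the Normal-labelled library they stood at 22.1 and 57.2 CPM, below the 77.9 and 183 CPM of its leukocyte cluster. The leukocyte levels were thus higher in the Normal-labelled library, unlike those of the class. The sum of the 9 fibroblast markers in the matrices, all detected, moved with the higher members. It was 351 CPM in the HVP-labelled library and 192 CPM in the Normal-labelled library. The part of these markers in the result was not tested.

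In pericyte-like cells, 2 of 20 members were at least 2-fold higher and none lower (1.6% and 0.993% of all genes). *COL11A1* had 71 UMIs in the HVP-labelled library and 5 in the Normal-labelled library, a ratio of 7.80 that was 2.11 with joint clustering, where 1 of 20 members was higher and none lower (0.904% and 1.16% of all genes). Its rate in the HVP-labelled library, 22.5 CPM, was below the 54.2 CPM of the leukocyte clusters. In the Normal-labelled library it was 2.88 CPM, below the 77.9 CPM of the leukocyte cluster there. *COL19A1* had 86 UMIs in 16 cells of the HVP-labelled library, 50 of them in 3 cells, and 1 UMI in the Normal-labelled library, a ratio of 47.2 (8.25 to 1886). Of those 86 UMIs, 70 lay in 20 cells that joint clustering moved to a separate cluster, where *COL19A1* stood at 465 CPM against 5.32 CPM in the other pericyte-like cells. The genes leading those 20 cells included *PCP4*, *CHRM2*, *BCL11B* and *ACTC1*, and the cells held the visceral smooth muscle actin *ACTG2* at 17722 CPM. Most *COL19A1* UMIs of pericyte-like cells in the HVP-labelled library thus lay in those 20 cells. The other pericyte-like cells there, at 5.32 CPM, were still above the 0.577 CPM of the Normal-labelled library (1 UMI). The UMIs left were under the 50 that a ratio needed. Smooth muscle markers, all 7 detected, summed to 7752 CPM in pericyte-like cells of the HVP-labelled library and 3403 CPM in those of the Normal-labelled library, and fibroblast markers, all 9 detected, to 503 and 303 CPM. Their part in the result was not tested.

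In smooth muscle-like cells, 6 of 21 members were at least 2-fold higher in the HVP-labelled library and none lower, against 2.91% and 3.04% of all genes. *COL1A1* had 8628 UMIs in the HVP-labelled library and 3618 in the Normal-labelled library, a ratio of 3.03, but 5853 of the 8628 lay in 31 cells outside the joint smooth muscle cluster. *COL26A1* had 71 UMIs, 57 of them in 1 cell, and 10 UMIs, a ratio of 9.03. *COL11A1* (7.86, with 68 and 11 UMIs), *COL1A2* (2.38) and *COL3A1* (2.05) were higher too. The top 5% of cells held 94.1%, 72.2% and 77.6% of their UMIs in the HVP-labelled library. *COL11A1* stood at 34.0 CPM in these cells of the HVP-labelled library, below the 54.2 CPM of its leukocyte clusters. In those of the Normal-labelled library it stood at 4.33 CPM, below the 77.9 CPM of the leukocyte cluster there. *COL1A2* and *COL3A1* were above their leukocyte levels in the HVP-labelled library and below them in the Normal-labelled library. *COL25A1* had a ratio of 4.48 with separate and 3.21 with joint clustering, where it was the only 1 of 19 members past 2-fold (0.745% and 1.19% of all genes). It had 74 and 21 UMIs with separate and 46 and 18 UMIs with joint clustering. With separate clustering it was found in 2.22% and 1.06% of thinned cells. Fibroblast markers, all 9 detected, summed to 1067 CPM in the HVP-labelled library and 503 CPM in the Normal-labelled library. Skeletal muscle markers, both of those in the matrices detected, summed to 22.0 CPM (44 UMIs) and 2799.9 CPM (7114 UMIs), and satellite cell markers, all 5 detected, to 21.5 and 79.1 CPM. The part of these cells in the result was not tested.

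In the NELL1-ACAN cluster, 2 of 24 members were at least 2-fold higher in the HVP-labelled library and none lower (1.85% and 1.17% of all genes). *COL19A1* had a ratio of 4.29 and *COL21A1* of 3.58, with 55 and 46 UMIs in the HVP-labelled library and 5 each in the Normal-labelled library, and the top 5% of cells held 94.5% to 100% of these. With joint clustering the ratios were 5.61 and 2.13, and 4 of 25 members were higher and none lower (1.18% and 1.17%). The abundant members of the cluster were close in both libraries.

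The classes under 100 cells carried few UMIs and gave values that a handful of cells could set. In melanocyte-like cells, 2 of 11 members were at least 2-fold higher in the HVP-labelled library and none lower (4.16% and 1.66% of all genes), *COL3A1* with a ratio of 3.67 and *COL1A1* with 2.18. The 3 cells richest in *COL1A1* held 1184 of its 1567 UMIs in the HVP-labelled library and 355 of 406 in the Normal-labelled library. In mesothelial-like cells, 2 of 14 were higher and none lower (2.39% and 2%), *COL3A1* at 3.03 and *COL4A6* at 2.12. In Schwann-like cells, 2 of 17 were lower and none higher (1.27% and 2.5%), *COL6A3* at 0.344 and *COL12A1* at 0.468. In satellite cell-like cells, 3 of 11 were lower and none higher (2.9% and 2.2%), *COL1A1* at 0.137, *COL3A1* at 0.271 and *COL1A2* at 0.316. All of the members named in these small classes were also abundant in the leukocyte clusters, except *COL4A6*. It stood there at 8.21 CPM in the HVP-labelled library and 6.97 CPM in the Normal-labelled library.

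The median collagen ratio on the log2 scale, beside the median of all genes, was -0.56 and -0.05 in fibroblast-like, 0.22 and 0.00 in tenocyte-like, 0.18 and -0.01 in blood endothelial-like, 0.36 and -0.01 in pericyte-like and 0.67 and 0.08 in smooth muscle-like cells. With joint clustering the collagen medians were 0.11, 0.21, 0.05, 0.20 and 0.13 in the same order, and at resolution 0.5 they were 0.04 in fibroblast-like and -0.68 in smooth muscle-like cells (all genes -0.30 in smooth muscle-like cells). Without the top 5% of Scrublet scores the median was -0.30 in blood endothelial-like cells. Of the collagen-processing genes, none of 28 passed 2-fold in fibroblast-like cells, none of 29 in tenocyte-like cells and none of 29 in the NELL1-ACAN cluster. Of 29 in blood endothelial-like cells *P4HA3* and *FKBP10* were higher in the HVP-labelled library, of 25 in pericyte-like cells *COLGALT2* was lower, and of 24 in smooth muscle-like cells *TLL1*, *PCOLCE2* and *LOXL2* were higher, against 1.28%, 0.993% and 2.91% of all genes in those directions.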

How the data were processed

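Peritoneum was digested with type 1 collagenase and sequenced on the 10x Chromium 3' platform. Per the labels and the study's methods, the authors aligned reads to GRCg7b with Cell Ranger 7.1.0, which uses STAR, with mitochondrial genes added to the annotation, and deposited filtered matrices of UMI counts (whole numbers) for 2 libraries. No replicate library was used here. The summed counts were 36100448 UMIs in the HVP-labelled library and 26865572 in the Normal-labelled library, over all barcodes. The strand setting of the counting is not given in the sources used here. Counts are of 3' ends, so levels were not divided by gene length, and levels of different genes are not compared as absolute amounts.

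Barcodes with over 1000 genes were kept. Each library was clustered with Seurat 5.3.0 in R 4.3.3 (2000 variable genes, 20 components, resolution 0.2), with *DCT*, *TYR*, *TYRP1* and all collagens removed from the variable genes. A cluster was named from at least 3 markers of 1 list (21 lists, 146 genes, 130 in the matrices) with at least 2-fold higher CPM than the other cells and a UMI in at least 10% of its cells. The name was withheld where the 10 leading genes held more markers of another list. It was also withheld where a leukocyte cluster met a second leukocyte list, or where a shallow cluster had none of its own markers among the leading genes. The details of this naming rule were set after the clusters were seen, and names may differ from those of the study. Doublets were not removed. Scrublet in scanpy 1.11.5 marked 5 (0.0699%) and 133 (1.91%) barcodes. The low first value gives reason to doubt its calls in the HVP-labelled library, and whether it worked there was not tested.

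Counts were summed per library and class and given as CPM with exact Poisson intervals, ratios with exact binomial intervals and shares of cells with Clopper-Pearson intervals (scipy 1.17.1), all at 95%. These cover counting error only. Cells were thinned to 2000 UMIs with shallower cells left out, 0 to 99 per main class and library. A leading class needed 10 UMIs, and a ratio between libraries 50 UMIs over both. Named with values were members with at least 500 UMIs, members past 2-fold in a class and class-specific members. The remaining ones were given after their values were seen. The ratios between libraries and the counting intervals were tested on simulated counts, drawn per class without clumping in single cells. Leading-class and class-specific calls, cluster naming and thinning were not tested in this way. The members and lists were chosen with earlier results of these data known.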

Additional observations from a re-analysis of the deposited data

Results flagged for a closer look

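For 3 collagens the HVP-labelled library was past 2-fold higher in one class and past 2-fold lower in another with libraries clustered separately. With 1 library of each colour, the difference between the classes was not tested. *COL12A1* had a ratio of 2.08 in blood endothelial-like cells and 0.218 in fibroblast-like cells. *COL25A1* had a ratio of 4.48 in smooth muscle-like cells, with 74 and 21 UMIs, and 0.245 in fibroblast-like cells, with 36 and 197 UMIs. *COL26A1* had a ratio of 9.03 in smooth muscle-like cells, where 57 of 71 UMIs of the HVP-labelled library lay in 1 cell, and 0.139 in fibroblast-like cells. None of the 3 fibroblast-like values stayed past 2-fold with joint clustering.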

How the results depend on the processing

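Across the alternatives, 20 to 26 members had the same leading class in both libraries and 6 to 12 were class-specific. Shares of all genes are not given for these alternatives, so the ranges describe the members only. For the 26 ratios past 2-fold in the fibroblast-, tenocyte-, blood endothelial-, pericyte- and smooth muscle-like classes, 273 of 284 alternative values kept their direction and 228 stayed past 2-fold. These pool unlike settings, since a minimum of 20 UMIs cannot change a ratio (25 of 25). With joint clustering 8 of 20 stayed past 2-fold when matched by name and 9 of 23 when matched by number. At resolution 0.5 it was 11 of 22. With collagens among the variable genes 24 of 24 stayed, with over 500 genes per barcode 17 of 19, and with the mitochondrial limit 13 of 15. Ratios in the other classes were not rerun, apart from the NELL1-ACAN cluster with joint clustering. The 11 reversals were all in fibroblast-like cells. On the log2 scale *COL12A1* turned to 0.0604 at resolution 0.5 and 0.11 with joint clustering, *COL4A6* to 0.0418 and 0.0917, *COL8A2* to 0.93 and 1.68, and *COL14A1* to 0.34 with joint clustering. The same values came whether joint clusters were matched by name or by number.

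Counts of members past 2-fold changed by over 1.5 times as follows, all as higher or lower in the HVP-labelled library. Among these alternatives, shares of all genes past 2-fold are given only for joint clusters matched by number. The other counts are therefore not read as results about collagens. With over 500 genes per barcode, 9 of 23 were higher in pericyte-like cells. With 300 to 4000 genes and under 5% mitochondrial UMIs, 5 of 16 were higher and 1 lower in blood endothelial-like cells. At resolution 0.5, 0 were higher and 4 lower of 25 in fibroblast-like cells, and 5 of 20 were higher in pericyte-like cells. In smooth muscle-like cells 1 was higher and 9 lower of 19, where the median log2 ratio of all genes was itself -0.304. With joint clusters matched by name, 2 were lower in fibroblast-like, 1 higher in blood endothelial-like and 4 higher in pericyte-like cells, and no cluster was named smooth muscle-like, so it gave no value. Matched by number, added after the data were seen, 2 were lower in fibroblast-like and 1 each higher in smooth muscle-like, pericyte-like and blood endothelial-like cells. With collagens among the variable genes, 1 was lower in tenocyte-like and 4 higher in pericyte-like cells. Without the top 5% of Scrublet scores, 4 were higher in tenocyte-like and 1 in pericyte-like cells. As means over cells, 1 was higher in blood endothelial-like and 3 in smooth muscle-like cells. In thinned cells, 6 were lower in fibroblast-like, 1 higher and 1 lower in tenocyte-like and in blood endothelial-like cells, and 0 higher in smooth muscle-like and pericyte-like cells. From 20 UMIs, 1 was lower in smooth muscle-like, in tenocyte-like and in pericyte-like cells. The cause of these shifts was not tested. No paired analysis was possible because each colour has 1 library, and no library could be left out for the same reason. Low counts limit the members under 100 UMIs in a class and the classes under 100 cells.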
